A study of Mus musculus with 12 samples.

Results

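The matrix metalloproteinases (MMPs), the ADAMs, the ADAMTS proteases and the ADAMTS-like proteins were followed in mouse lung after bleomycin, with and without FIZZ2. Members were all genes whose symbol starts with Mmp, Adam, Adamts or Adamtsl followed by a digit, and 66 of the 18194 genes tested met this rule. They comprise 18 Mmp, 28 Adam, 15 Adamts and 5 Adamtsl genes. A further 15 genes that match the rule, among them Adamts2, Adamts13, Mmp15 and Mmp28, have no probe set of their own and were not analysed here.

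The data come from 12 Affymetrix expression arrays of whole-lung RNA, with 4 groups of 3 arrays. These comprise wild type C57BL/6 lungs given saline, wild type lungs given bleomycin, FIZZ2 knockout C57BL/6 lungs given saline and such knockout lungs given bleomycin. Injections were endotracheal, all lungs were taken on day 21, and all were flushed with PBS beforehand. FIZZ2, also named RELM-beta, is a resistin-like secreted protein, and bleomycin is a DNA-breaking drug used in mice to injure and scar the lung. Age, sex and the construction of the knockout allele are not given in the sources used here. The labels do not say that replicates are separate animals, so p-values measure the spread between these arrays, which may be technical.

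MMPs are zinc-dependent enzymes that are secreted or held at the cell surface as inactive precursors. Between them they cut collagens, elastin, fibronectin and other matrix proteins, and TIMP proteins block their active site. ADAMs are membrane proteins that, where they keep an active site, release the outer parts of growth factors, cytokine receptors and adhesion molecules. ADAMTS enzymes are secreted and cut proteoglycans and procollagens, and the ADAMTS-like proteins resemble them without the catalytic domain. In scarred lung these families are known from macrophages, neutrophils, epithelium and fibroblasts.

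Values are deposited log2 expression levels, so a difference of 1 is 2-fold, and levels were compared within a gene and never between genes. A level under 4.37, the lower quartile of all gene values, is called dim below. A gene was called when limma's Benjamini-Hochberg adjusted p over all 18194 genes was under 0.05. All 7 lung markers, such as Sftpc, were above the dim level in every group. Wild type saline replicate 2 stood apart: its 3 prime minus 5 prime actin signal was 1.41 against 0.421 to 0.962 on the other 11 arrays, and its estimated array weight was 0.339. Without it 6 calls on named members were lost and 4 were gained, and each is given with its result. The weights of wild type saline replicates 1 and 3 were 5.13 and 0.649. Results with array weights thus rest mostly on replicate 1 for wild type saline. The next lowest weight was 0.407, that of wild type bleomycin replicate 1.

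In mice, 10 MMP genes lie next to each other on chromosome 9, in the order Mmp13, Mmp12, Mmp1b, Mmp3, Mmp1a, Mmp10, Mmp8, Mmp27, Mmp20 and Mmp7. In human MMP genes, transcription is classically driven from a binding site for the AP-1 factors placed upstream of a TATA box. The following RefSeq stretches (GRCm38.p6) are the 120 bases just before the annotated start of cluster members. Mmp13, Mmp12, Mmp3, Mmp10 and Mmp8 rose after bleomycin in wild type lungs. Of the members not called, Mmp1a and Mmp7 are shown, while Mmp1b, Mmp20 and the second annotated start of Mmp7 are not. Capitals mark the AP-1 letters TGAGTCA and the letters TATAAA, each searched on both strands.
Mmp13 (chr9:7272394-7272513, + strand): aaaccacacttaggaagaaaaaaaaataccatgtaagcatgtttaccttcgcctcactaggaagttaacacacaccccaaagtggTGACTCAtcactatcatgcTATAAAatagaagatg
Mmp12, start 1 (chr9:7344277-7344396, + strand): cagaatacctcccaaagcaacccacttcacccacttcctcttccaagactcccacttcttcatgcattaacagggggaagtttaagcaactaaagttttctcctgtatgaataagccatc
Mmp12, start 2 (chr9:7347254-7347373, + strand): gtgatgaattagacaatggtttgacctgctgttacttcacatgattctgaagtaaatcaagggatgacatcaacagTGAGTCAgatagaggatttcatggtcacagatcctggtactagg
Mmp3 (chr9:7445702-7445821, + strand): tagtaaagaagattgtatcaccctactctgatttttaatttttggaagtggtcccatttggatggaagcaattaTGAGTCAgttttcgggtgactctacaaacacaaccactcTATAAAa
Mmp10 (chr9:7502222-7502341, + strand): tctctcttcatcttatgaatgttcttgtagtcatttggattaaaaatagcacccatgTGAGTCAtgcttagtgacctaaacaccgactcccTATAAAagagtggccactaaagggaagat
Mmp8 (chr9:7558309-7558428, + strand): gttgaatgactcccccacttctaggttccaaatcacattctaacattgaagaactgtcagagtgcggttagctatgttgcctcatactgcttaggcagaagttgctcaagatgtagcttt
Mmp1a (chr9:7464021-7464140, + strand): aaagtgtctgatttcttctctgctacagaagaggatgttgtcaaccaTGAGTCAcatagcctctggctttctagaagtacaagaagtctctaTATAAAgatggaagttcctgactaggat
Mmp7 (chr9:7691970-7692089, + strand): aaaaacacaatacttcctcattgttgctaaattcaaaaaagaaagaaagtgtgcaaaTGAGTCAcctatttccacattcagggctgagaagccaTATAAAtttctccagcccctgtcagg

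The promoter table matched 37 of the 66 members, with 42 windows of 250 bases upstream of a start. The AP-1 letters occur in 4.46% of all 32851 mouse windows and in 8 member windows, those of Adam19, Mmp10, Mmp12, Mmp13, Mmp1a, Mmp1b, Mmp3 and Mmp7. The letters TATAAA occur in 12.37% of all windows and in 11 of the members' windows. Both motifs together occur in 0.721% of all windows and in 6 member windows (Mmp10, Mmp13, Mmp1a, Mmp1b, Mmp3 and Mmp7), all in the chromosome 9 cluster. Members with the same letters did not all move alike: Mmp13, Mmp3 and Mmp10 rose in wild type lungs, while the changes of Mmp1a (0.07), Mmp1b (0.01) and Mmp7 (0.05) were not called. Mmp8, whose window holds neither motif, rose. Mmp20, which was not called, has TATAAA without the AP-1 letters, and the window of the second Mmp7 start has neither. A match of letters is a description of the sequence and does not show that a factor binds there.

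Bleomycin raised 23 members and lowered 6 in wild type lungs, and the remaining 37 were not called. Over all genes tested, 13.3% rose, 14.4% fell and 27.7% were called in either direction, so the share of members that rose (34.8%) lay above that of all genes and the share that fell (9.09%) below it. The members' median change was 0.05, against -0.04 for all genes. At a change of at least 2-fold, 12 members were called, where 4.06% of all genes were: Mmp12, Adamts12, Mmp19, Mmp13, Mmp14, Adam12, Adamts4, Mmp8, Mmp2, Adam8, Adamts1 and Adamts7, each of them higher after bleomycin. The calls comprised 10 rises and 1 fall among 18 Mmp genes, 6 rises and 1 fall among 28 Adam genes, 6 rises and 3 falls among 15 Adamts genes, and 1 rise and 1 fall among 5 Adamtsl genes.

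**Figure D1:**
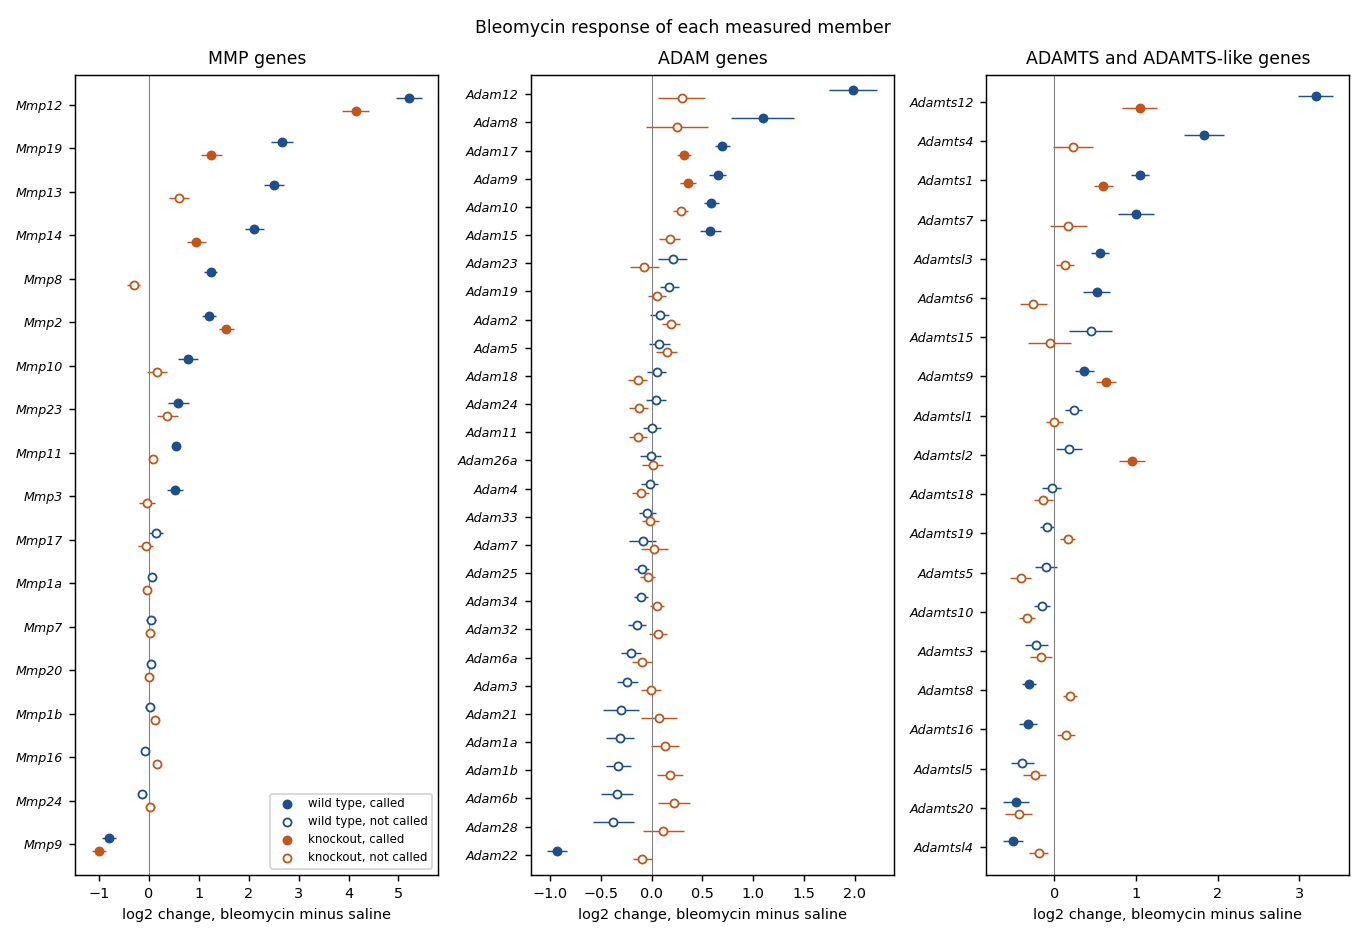
Log2 change after bleomycin (x axis, with the SE of the fit) for each of the 66 members (y axis), in wild type lungs in blue and knockout lungs in orange, with filled points for called changes. The largest changes are those of Mmp12, at 5.21 in wild type and 4.14 in knockout lungs, and most Adam genes of the reproductive tract lie near 0.

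In knockout lungs 10 members rose and 1 fell, and 55 were not called. Over all genes, 1.98% rose, 1.29% fell and 3.26% were called in either direction. The members' median change was 0.07, against 0.01 for all genes. Those that rose were Mmp2, Mmp12, Mmp14, Mmp19, Adam9, Adam17, Adamts1, Adamts9, Adamts12 and Adamtsl2, and the one that fell was Mmp9. At least 2-fold changes were called in 5 members (Mmp2, Mmp9, Mmp12, Mmp19 and Adamts12) and in 0.495% of all genes. The count was sensitive to single arrays, with 5 members called without knockout saline replicate 1 or replicate 2 and 6 without knockout bleomycin replicate 3. The share of all genes called without these arrays is not given here.

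The direct test of the difference between the knockout and the wild type response called 10 members, where 5.02% of all genes were called. For 8 of them, Mmp8, Mmp11, Mmp13, Mmp14, Mmp19, Adam12, Adamts4 and Adamts12, the response of the knockout lay below that of the wild type (3.0% of all genes), and for Adam22 and Adamts8 it lay above it (2.03%). The difference was at least 2-fold in 7 members, against 1.69% of all genes. Among all 66 members the difference was below 0 in 37 (56.1%), and among all genes it was below 0 in 42.3%. The count fell to 5 without knockout bleomycin replicate 1, and to 6 without wild type saline replicate 1 or any one of the knockout saline arrays. Shares of all genes without these arrays are not given here either. Adam12, Adam22, Adamts12, Mmp8 and Mmp13 kept their call under every alternative in which they were tested.

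**Figure D2:**
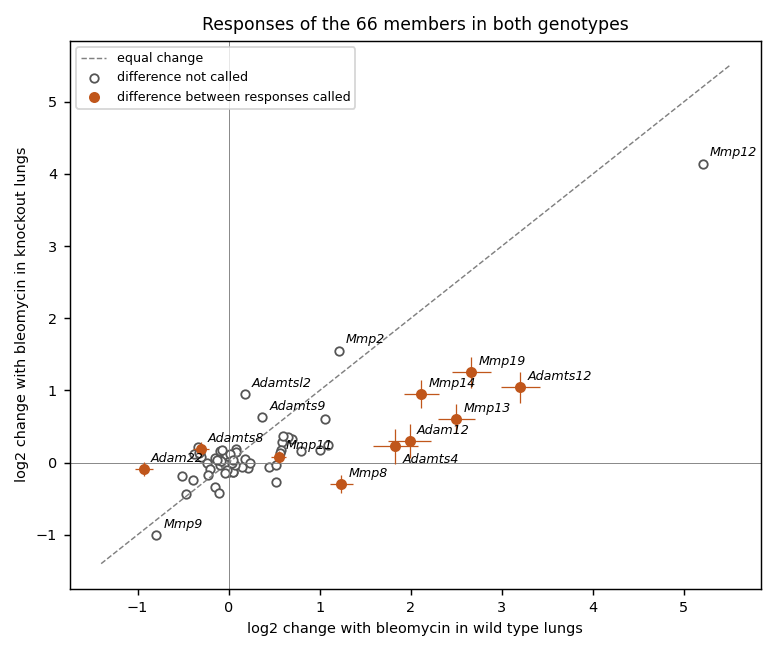
Log2 change after bleomycin in knockout lungs (y axis) against that in wild type lungs (x axis) for the 66 members, with filled points for the 10 members called for the difference and a dashed line where both responses are equal. Both axes share the saline and bleomycin arrays with the difference itself, and Mmp13 (2.50 and 0.61) and Adamts12 (3.20 and 1.05) lie well below the line.

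Mmp12, the metalloelastase made mainly by macrophages, showed the largest rise of any of the 18194 genes in each genotype. Its log2 level was 4.92, 4.85 and 5.21 on the wild type saline arrays, 9.77, 10.14 and 10.70 on the wild type bleomycin arrays, 5.61, 4.86 and 5.15 on the knockout saline arrays, and 8.90, 9.84 and 9.29 on the knockout bleomycin arrays. Every bleomycin array thus lay far above every saline array, and the bleomycin arrays of the genotypes overlapped. The rise was 36.9-fold in wild type lungs (log2 5.21 ± 0.26 SE, limma adjusted p = 1.58e-07, n = 3 arrays a group) and 17.6-fold in knockout lungs (4.14 ± 0.26, adjusted p = 7.48e-06). The knockout response was smaller by a log2 difference of -1.06 with a 95% interval from -1.87 to -0.27, which did not pass (adjusted p = 0.115). With array weights, where most of the wild type saline weight lay on replicate 1, that difference was -1.23 and was called (limma adjusted p = 0.0311). After bleomycin the knockout level was lower by a log2 difference of -0.86 (adjusted p = 0.0423), a call that was lost under 9 of 20 alternatives.

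Macrophage and monocyte markers moved with Mmp12. Of 9 measured, 8 rose in wild type lungs and 7 in knockout lungs, and none was dim. Their summed level, as log2, was 11.80 to 12.06 after saline and 12.96 to 13.14 after bleomycin in wild type lungs, and 12.01 to 12.14 and 12.44 to 12.73 in knockout lungs. The markers rose by less than Mmp12, with Msr1 at 2.92 and Cd68 at 2.16 in wild type lungs. Their part in the Mmp12 change was not tested, and in whole tissue more cells of a type and more RNA per cell cannot be told apart.

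Among the collagenases, which cut intact fibrillar collagen, Mmp13 and Mmp8 rose in wild type lungs while Mmp1a and Mmp1b stayed dim in every group. Mmp13 read 3.52, 3.47 and 3.20 after saline and 5.93, 5.63 and 6.14 after bleomycin in wild type lungs, and 3.35, 3.22 and 3.35 and then 3.56, 4.50 and 3.68 in knockout lungs. All 3 wild type bleomycin arrays stood above the other 9, and only 1 knockout bleomycin array passed the dim level. The wild type rise was 5.66-fold (log2 2.50 ± 0.20, adjusted p = 2.93e-06), and since values this dim compress a change, that fold may understate it. The knockout change of 0.61 was not called (adjusted p = 0.129), and the difference between the responses was -1.89 ± 0.28 (adjusted p = 0.0048). Both rest on mostly dim values in knockout lungs, so dim signal may affect them as well.

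Mmp8, the collagenase of neutrophil granules, was the member whose responses had opposite signs and a called difference of more than 2-fold. It read 5.25, 5.12 and 5.00 after saline and 6.51, 6.21 and 6.36 after bleomycin in wild type lungs. In knockout lungs it read 5.88, 5.63 and 6.12 after saline and 5.40, 5.67 and 5.66 after bleomycin. The wild type groups were separate, whereas the knockout groups overlapped. The rise in wild type was 2.36-fold (log2 1.24 ± 0.13, adjusted p = 1.83e-05), the knockout change was -0.30 (adjusted p = 0.234), and the responses differed by -1.54 ± 0.18 (adjusted p = 0.0018). Knockout saline lungs held 1.69-fold more Mmp8 signal than wild type saline lungs (adjusted p = 0.0208).

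The gelatinases, which cut denatured and basement membrane collagen, moved apart. Mmp2, a product of stromal cells, read 9.86, 9.74 and 9.70 after saline and 11.13, 10.87 and 10.93 after bleomycin in wild type lungs, and 9.26, 9.04 and 9.02 and then 10.25, 10.83 and 10.89 in knockout lungs. Bleomycin arrays lay above saline arrays in both genotypes, and the knockout saline arrays were the lowest of all. Mmp2 rose 2.31-fold in wild type lungs (log2 1.21 ± 0.15, adjusted p = 5.48e-05) and 2.93-fold in knockout lungs (1.55 ± 0.15, adjusted p = 0.000267). The responses differed by 0.34 with a 95% interval from -0.10 to 0.78 (adjusted p = 0.357), and the saline levels of the genotypes by -0.66 (adjusted p = 0.0801). That saline difference was called with array weights (-0.72, limma adjusted p = 0.00236), where most of the wild type saline weight lay on replicate 1. It was also called with only the groups compared (0.0378) and without knockout bleomycin replicate 1 (0.00999).

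Mmp9, a gelatinase stored in neutrophils, fell after bleomycin in both genotypes and was higher in knockout than in wild type lungs under both treatments. It read 6.98, 6.86 and 6.83 after saline and 6.18, 6.06 and 6.04 after bleomycin in wild type lungs, and 7.83, 7.54 and 7.83 and then 7.08, 6.43 and 6.68 in knockout lungs. Within each treatment the knockout arrays all lay above the wild type arrays. The falls were -0.80 ± 0.14 (adjusted p = 0.000843) and -1.0 ± 0.14 (adjusted p = 0.00237) on the log2 scale. The knockout excess was 1.79-fold after saline (adjusted p = 0.0163) and 1.55-fold after bleomycin (adjusted p = 0.00774), and the responses differed by -0.21 (adjusted p = 0.578).

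Neutrophil markers, like Mmp9, were highest in sum on the knockout saline arrays. Their summed level over 10 genes, as log2, was 12.09 to 12.32 after saline and 11.93 to 12.32 after bleomycin in wild type lungs, and 13.01 to 13.45 and 12.17 to 12.71 in knockout lungs. In wild type lungs 4 of the 10 fell and 1 rose, and in knockout lungs 3 fell and 1 rose. Mpo was dim in every group, and Camp fell below that level in knockout bleomycin lungs. In wild type lungs the saline and bleomycin ranges of the neutrophil sum overlapped, while Mmp9 fell and Mmp8 rose with separate groups. The sum is of linear values, so the brightest genes weigh most, and these moved apart. From wild type saline to bleomycin the mean of S100a8 went from 10.8 to 9.8 and that of S100a9 from 10.4 to 8.9. Lcn2 went up from 9.4 to 10.8. These 3 genes were named after their values were seen. After bleomycin the ranges of the sum in the genotypes overlapped too, unlike those of Mmp9. By gene, 5 of the 10 markers were called higher in knockout than in wild type lungs after bleomycin and 0 lower. After saline 3 were called higher and 0 lower. Of all genes, 7.52% were higher and 7.89% lower after bleomycin, and 0.297% and 0.192% after saline. The part of these cells in the Mmp8 and Mmp9 results was not tested.

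**Figure D3:**
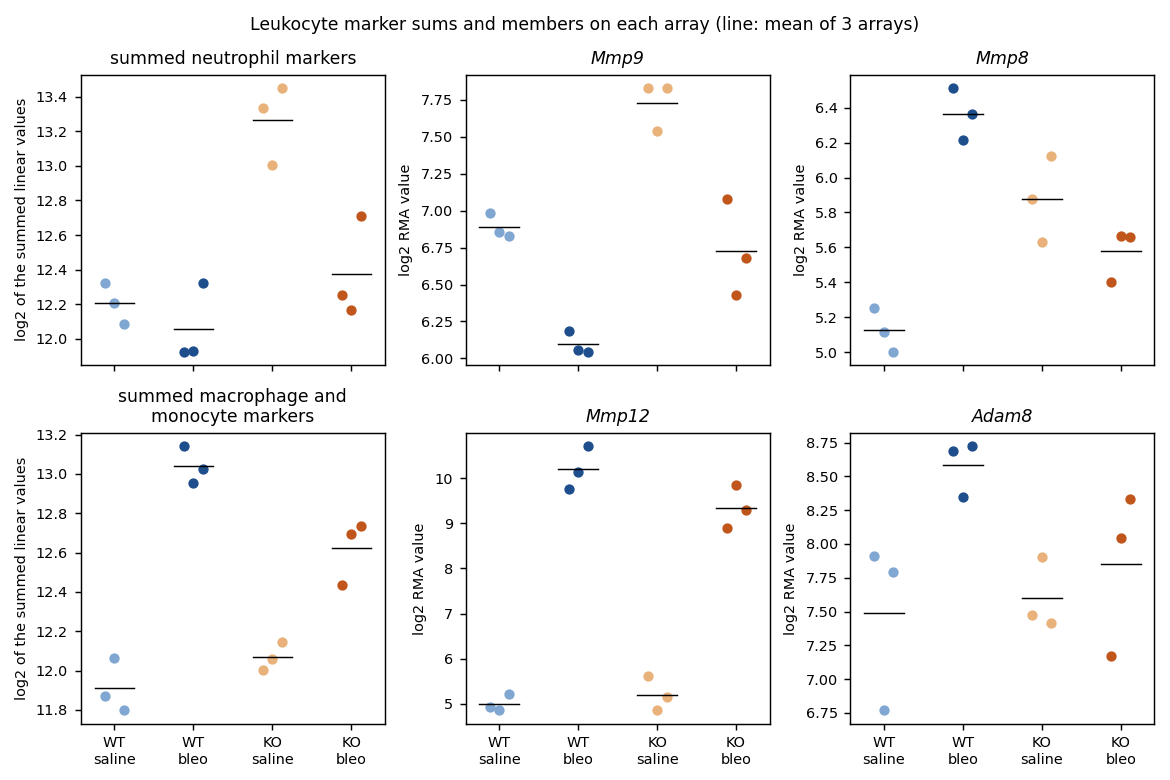
Log2 of the summed linear levels of the neutrophil and the macrophage markers on each of the 12 arrays, by group. Beside them are the log2 levels of Mmp9, Mmp8, Mmp12 and Adam8 on the same arrays. Knockout saline arrays are highest for the neutrophil sum (13.01 to 13.45) and for Mmp9 (7.54 to 7.83), and wild type bleomycin arrays are highest for the macrophage sum.

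The 3 stromelysins and relatives, Mmp3, Mmp10 and Mmp11, all rose in wild type lungs. Mmp3 and Mmp10 cut proteoglycans and activate other MMPs. In knockout lungs limma called 0 of the 3, and 0 had an unadjusted p under 0.05. Of all genes, 13.3% rose in wild type lungs and 3.26% were called in knockout lungs, so 0 calls among 3 genes there says little. Mmp11 rose by 0.55 ± 0.08 (adjusted p = 0.000331), and its responses differed by -0.47 (adjusted p = 0.0405), a call that was lost under 14 of 19 alternatives. Its level after bleomycin was called lower in knockout lungs only without wild type saline replicate 2 (-0.23, adjusted p = 0.0297) and with array weights (-0.25, 0.0351). Mmp10 read 5.90, 4.81 and 5.16 on the wild type bleomycin arrays, against 4.40 to 4.60 after wild type saline and 4.42 to 4.64 after knockout bleomycin. Its rise was 0.79 ± 0.20 (adjusted p = 0.00894), and 0.48 without wild type bleomycin replicate 1 (adjusted p = 0.00822). Mmp3 rose by 0.52 ± 0.17 (adjusted p = 0.0308), a call lost on leaving out any of 5 arrays (0.0625 without wild type saline replicate 2), and for Mmp3 and Mmp10 the difference between responses was not called. Matrilysin, Mmp7, an epithelial enzyme known from scarred human lung, lay between 4.70 and 5.05 on all arrays and changed by 0.05 in wild type (adjusted p = 0.745) and 0.03 in knockout lungs.

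**Figure D4:**
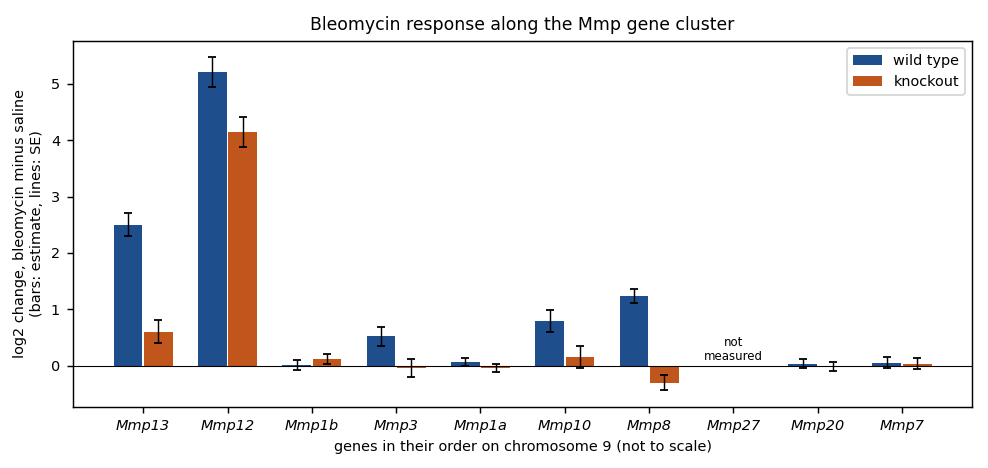
Log2 change after bleomycin (bars from 0, with the SE of the fit) for the MMP genes of chromosome 9 in their order along the chromosome, wild type beside knockout, with Mmp27 not measured. Of the 9 genes measured, 5 rose in wild type lungs (Mmp13, Mmp12, Mmp3, Mmp10 and Mmp8) and only Mmp12 in knockout lungs. The shares of all genes that rose were 13.3% and 1.98%.

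Mmp14, the membrane-bound MMP that cuts collagen and activates pro-Mmp2, rose in both genotypes. It read 8.32, 8.51 and 8.53 after saline and 11.07, 10.24 and 10.38 after bleomycin in wild type lungs, and 8.40, 8.31 and 8.25 and then 8.96, 9.60 and 9.25 in knockout lungs. No saline array reached a bleomycin array, and every knockout bleomycin array lay below every wild type one. The rises were 4.33-fold (log2 2.11 ± 0.19, adjusted p = 6.71e-06) and 1.93-fold (0.95 ± 0.19, adjusted p = 0.0193), and the responses differed by -1.16 ± 0.27 (adjusted p = 0.0306). Both the knockout rise and the difference were lost on leaving out any of 5 arrays, with the highest adjusted p at 0.0834 and 0.0779. The other 3 membrane-type genes measured, Mmp16, Mmp17 and Mmp24, were not called in either genotype.

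Mmp19, an MMP of macrophages and stromal cells, read 4.60, 4.53 and 4.58 after saline and 7.10, 7.02 and 7.59 after bleomycin in wild type lungs. In knockout lungs it read 5.06, 5.28 and 4.36 and then 5.88, 6.16 and 6.41. The groups were separate in each genotype, with the knockout bleomycin arrays between the saline arrays and the wild type bleomycin arrays. The rises were 6.35-fold (log2 2.67 ± 0.21, adjusted p = 2.7e-06) and 2.38-fold (1.25 ± 0.21, adjusted p = 0.00779), and the difference was -1.42 ± 0.30 (adjusted p = 0.0201). Without knockout saline replicate 1 the difference had an adjusted p of 0.0584, and without knockout bleomycin replicate 1 of 0.0573, and with the mean of its probe sets of 0.0888. Mmp23, a membrane MMP, rose by 0.59 in wild type lungs (adjusted p = 0.0486), with overlapping groups. Its call was lost under 14 of 20 alternatives.

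**Figure D5:**
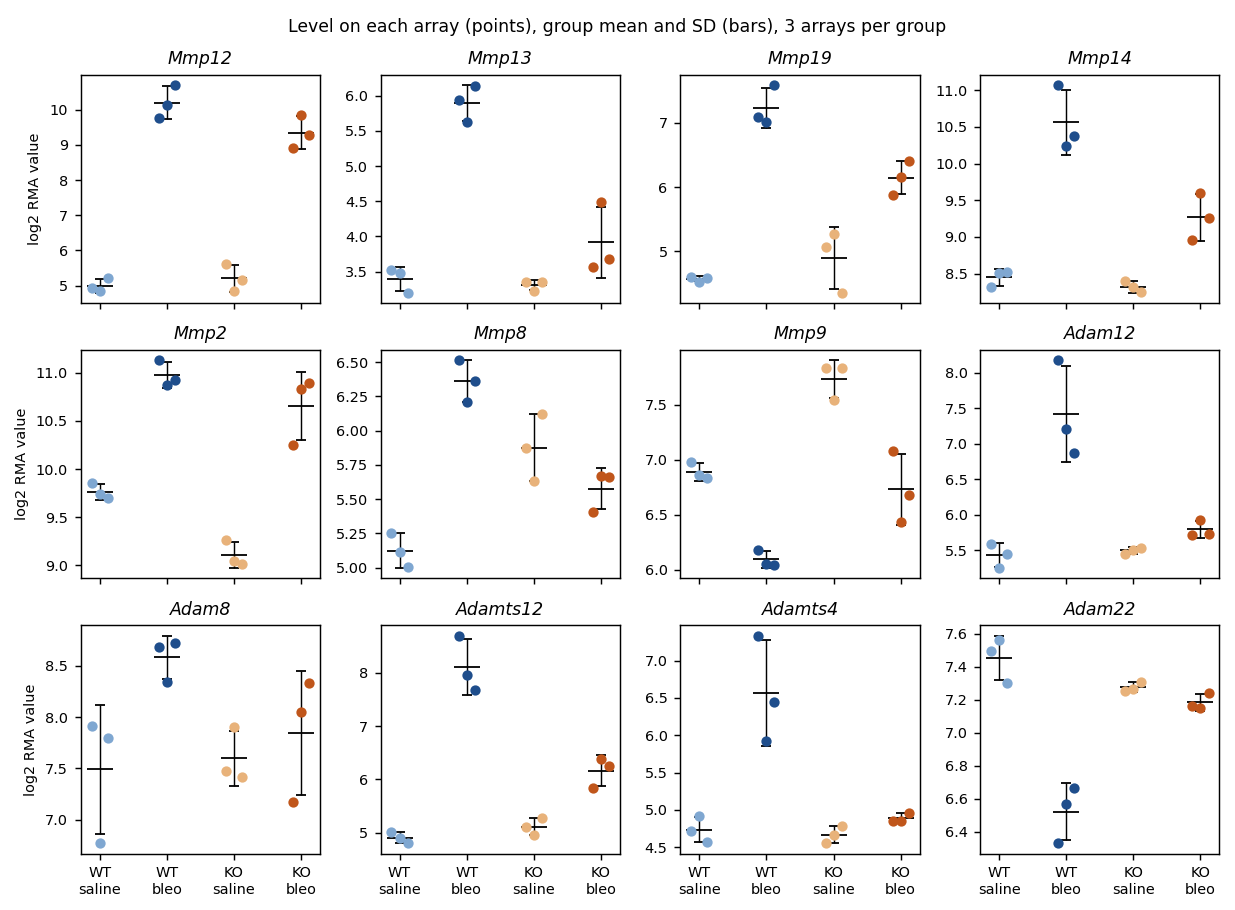
Log2 level of 12 members on each of the 12 arrays, by group, with the group mean and SD over 3 arrays. Mmp13, Adam12 and Adamts4 stand high on the wild type bleomycin arrays only, Mmp2 is high on both sets of bleomycin arrays, and Adam22 is low on the wild type bleomycin arrays.

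Of the 9 widely expressed ADAMs that shed cell surface proteins, 6 rose in wild type lungs (Adam8, Adam9, Adam10, Adam12, Adam15 and Adam17) and 2 in knockout lungs (Adam9 and Adam17). The shares of all genes that rose were 13.3% and 1.98%. Adam12, an ADAM induced in activated mesenchymal cells, read 5.60, 5.25 and 5.45 after saline and 8.18, 7.21 and 6.88 after bleomycin in wild type lungs, and 5.45, 5.51 and 5.54 and then 5.72, 5.93 and 5.74 in knockout lungs. The wild type bleomycin arrays stood alone, and the knockout bleomycin arrays lay just above all saline arrays. The wild type rise was 3.97-fold (log2 1.99 ± 0.24, adjusted p = 5.13e-05), the knockout change was 0.30 (adjusted p = 0.568), and the responses differed by -1.69 ± 0.33 (adjusted p = 0.0142).

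Adam17, the protease that releases TNF and several EGF receptor ligands, read 8.54, 8.63 and 8.51 after saline and 9.20, 9.26 and 9.31 after bleomycin in wild type lungs, and 8.68, 8.64 and 8.74 and then 8.93, 9.02 and 9.07 in knockout lungs. The groups were separate in both genotypes, with a narrow spread. Its rise was 1.62-fold in wild type (log2 0.70 ± 0.07, adjusted p = 1.99e-05) and 1.25-fold in knockout lungs (0.32 ± 0.07, adjusted p = 0.0331), and the difference of -0.38 did not pass (adjusted p = 0.0536). Without wild type saline replicate 2 the difference was -0.41 and was called (adjusted p = 0.0454), as it was with array weights (0.0132) and with genes of a mean under 5 left out (0.0438). The knockout rise of Adam17 was lost under 8 of 20 alternatives, with an adjusted p of up to 0.188. Adam10, its closest relative among the sheddases, rose 1.50-fold in wild type lungs (adjusted p = 0.000107), while its knockout change of 0.29 was not called (adjusted p = 0.065). That knockout change was called with array weights (limma adjusted p = 0.028) and without knockout bleomycin replicate 1 (0.0377). It was also called with eBayes trend and robust (0.0472), array medians subtracted (0.0487) and genes of a mean under 5 left out (0.0494). The difference between the Adam10 responses, -0.30, was not called either (adjusted p = 0.126). Adam9 rose by 0.65 ± 0.08 in wild type (adjusted p = 8.64e-05) and 0.36 ± 0.08 in knockout lungs (adjusted p = 0.034, lost under 5 of 20 alternatives), and Adam15, named after its values were seen, rose by 0.58 in wild type lungs (adjusted p = 0.000953).

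Adam8, an ADAM of myeloid cells, varied widely between replicates. It read 7.91, 6.77 and 7.79 after saline and 8.69, 8.34 and 8.72 after bleomycin in wild type lungs, and 7.47, 7.91 and 7.41 and then 7.17, 8.05 and 8.33 in knockout lungs. Its lowest value came from wild type saline replicate 2, the array that stood apart. The rise in wild type was 2.13-fold (log2 1.09 ± 0.31, adjusted p = 0.0175), and without that array it was 0.73 (adjusted p = 0.0709). The call was also lost without wild type bleomycin replicate 1 (0.0512) or replicate 3 (0.0561). The knockout change was 0.25 (adjusted p = 0.736), and the responses differed by -0.84 (adjusted p = 0.282). Adam33, a gene linked to human asthma and known from airway smooth muscle, lay between 5.82 and 6.10 on all arrays and was called in 0 of the 5 comparisons.

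Adam22, an ADAM without protease activity that serves as a receptor for LGI proteins in the nervous system, showed the clearest fall. It read 7.49, 7.56 and 7.30 after saline and 6.33, 6.57 and 6.67 after bleomycin in wild type lungs, and 7.25, 7.27 and 7.31 and then 7.16, 7.15 and 7.24 in knockout lungs. The wild type bleomycin arrays lay below the other 9, and all 6 knockout arrays lay between 7.15 and 7.31. It fell by 0.93 ± 0.09 in wild type lungs (1.91-fold, adjusted p = 1.72e-05), its knockout change was -0.09 (adjusted p = 0.678), and the responses differed by 0.84 ± 0.13 (adjusted p = 0.00626). Its other probe set, with a mean of 4.65, changed by -0.06 in wild type lungs and was not called (adjusted p = 0.759 over all probe sets). With the mean of both probe sets the wild type fall was -0.49 (adjusted p = 0.00101) and the difference 0.47 (adjusted p = 0.0465).

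Markers of other cells fell in the same wild type lungs. Lymphocyte markers fell in 5 of 5 genes measured, cardiac muscle markers in 6 of 6 and airway epithelial markers in 4 of 6 with 1 rise, and in knockout lungs limma called 0 of each list, with an unadjusted p under 0.05 for 2 lymphocyte, 6 cardiac and 1 airway gene. Summed lymphocyte markers were 10.11 to 10.46 after saline and 8.97 to 9.74 after bleomycin in wild type lungs, as log2, and 10.41 to 10.90 and 10.15 to 10.37 in knockout lungs. Airway markers summed to 14.65 to 14.86 and 13.65 to 14.36 in wild type lungs, and to 14.74 to 14.90 and 14.59 to 14.74 in knockout lungs. Cardiac markers summed to 12.52 to 13.07 and 10.72 to 11.27 in wild type lungs, and to 12.60 to 13.28 and 10.82 to 12.79 in knockout lungs. Vascular endothelial markers fell in 4 of 6 genes in wild type lungs and in 2 of 6 in knockout lungs, with 0 rises. Of all genes, 14.4% fell in wild type and 1.29% in knockout lungs. None of the markers in these lists was dim, and their part in the Adam22 change was not tested.

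Of the 16 ADAMs known mainly from testis, sperm or epididymis, none was called by limma in any of the 5 comparisons, with an unadjusted p under 0.05 in 9 of 80 tests, and 14 of these genes were dim in all groups. Their wild type changes ranged from -0.34 to 0.08. The share of all genes called ran from 0.489% for the genotypes after saline to 27.7% for bleomycin in wild type lungs.

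Among the ADAMTS enzymes, Adamts12 rose most. It read 5.02, 4.89 and 4.81 after saline and 8.70, 7.95 and 7.67 after bleomycin in wild type lungs, and 5.10, 4.96 and 5.29 and then 5.83, 6.39 and 6.26 in knockout lungs. Bleomycin and saline arrays were separate in both genotypes, with every knockout bleomycin array below every wild type one. The rises were 9.20-fold (log2 3.20 ± 0.21, adjusted p = 9.68e-07) and 2.06-fold (1.05 ± 0.21, adjusted p = 0.0198), and the responses differed by -2.16 ± 0.30 (adjusted p = 0.00337). Its other probe set was dim, with a mean of 2.87, and was not called. The knockout rise was lost on leaving out any of 4 arrays, with the highest adjusted p at 0.0941, and with the mean of both probe sets (0.0653), which also lowered the wild type rise to 1.56 and the difference between responses to -1.02 (adjusted p = 0.0168).

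The hyalectanases are the ADAMTS enzymes that cut aggrecan, versican and brevican. In wild type lungs 3 of 7 rose and 2 fell, where 13.3% and 14.4% of all genes did. Adamts4 read 4.72, 4.92 and 4.58 after saline and 7.33, 5.92 and 6.45 after bleomycin in wild type lungs, and 4.55, 4.66 and 4.78 and then 4.85, 4.86 and 4.96 in knockout lungs. The wild type bleomycin arrays were widely spread and all above the other 9. The wild type rise was 3.56-fold (log2 1.83 ± 0.25, adjusted p = 0.000139), the knockout change was 0.22 (adjusted p = 0.703), and the responses differed by -1.61 ± 0.35 (adjusted p = 0.0231). Leaving out any of 4 arrays took the difference past the threshold, with adjusted p-values from 0.0505 to 0.0583.

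Adamts1 rose in both genotypes. It read 9.61, 9.57 and 9.71 after saline and 10.71, 10.70 and 10.65 after bleomycin in wild type lungs, and 9.58, 9.53 and 9.84 and then 10.19, 10.07 and 10.49 in knockout lungs. Knockout bleomycin arrays lay between both sets of saline arrays and the wild type bleomycin arrays. The rises were 2.08-fold (log2 1.05 ± 0.11, adjusted p = 2.03e-05) and 1.52-fold (0.60 ± 0.11, adjusted p = 0.0117), with a difference of -0.45 that was not called (adjusted p = 0.114). Adamts5, the other main aggrecan-cutting enzyme, changed by -0.10 in wild type and -0.42 in knockout lungs and was not called (adjusted p = 0.111 in knockout). The knockout change was called without wild type saline replicate 2 (-0.42, adjusted p = 0.0277), with array weights (0.0357) and with the mean of all its probe sets (-0.32, 0.0418).

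Adamts9 was the only member called lower in knockout than in wild type lungs after saline. It read 8.92, 8.94 and 8.77 on the wild type saline arrays and 7.76, 7.94 and 8.16 on the knockout saline arrays, which were separate. The log2 difference was -0.92 ± 0.12 (adjusted p = 0.00417). Its other 2 probe sets were not called, and the mean of all its probe sets differed by -0.28 (adjusted p = 0.341), so the call belongs to this probe set. Adamts8 fell in wild type lungs by 0.31 (adjusted p = 0.0182) and its responses differed by 0.50 (adjusted p = 0.0384), a difference lost on leaving out any of 10 arrays, wild type saline replicate 2 among them (0.0562).

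Adamts7, which cuts the cartilage protein COMP, rose by 1.0 ± 0.22 in wild type lungs (adjusted p = 0.00478), with 5.92 on replicate 1 and 4.80 and 4.82 on the others. Without that replicate the rise was 0.63 (adjusted p = 0.000671). Adamts15 was not called for bleomycin in wild type lungs, where it changed by 0.44, but without wild type saline replicate 2 the change was 0.81 (adjusted p = 0.0095). After bleomycin it was lower in knockout than in wild type lungs by -1.04 ± 0.26 (adjusted p = 0.0182). Adamts6 rose by 0.52 (adjusted p = 0.0348) and Adamts16 fell by 0.33 (adjusted p = 0.046) in wild type lungs, but the Adamts6 call was lost under 5 of 19 alternatives and the Adamts16 call under 15 of 20. Without wild type saline replicate 2 the Adamts16 change was -0.26 (adjusted p = 0.144), and with the mean of its probe sets -0.11 (0.384). Adamts20, named after its values were seen, fell by 0.47 in wild type lungs (adjusted p = 0.0465) while dim in all groups.

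The ADAMTS-like proteins bind the matrix without cutting it, and Adamtsl2 and Adamtsl4 are known partners of fibrillin. Adamtsl2, named after its values were seen, was the member called in knockout but not in wild type lungs. It read 8.31, 8.48 and 8.65 on the knockout saline arrays, 9.46, 9.53 and 9.31 on the knockout bleomycin arrays, and 8.95 to 9.61 on the 6 wild type arrays. The knockout saline arrays were the lowest of the 12, and the other 3 groups overlapped. Its rise was 1.93-fold in knockout lungs (log2 0.95 ± 0.16, adjusted p = 0.00664), against a change of 0.18 in wild type, and neither the difference between the responses (0.77, adjusted p = 0.0629) nor the saline difference (-0.74, adjusted p = 0.0663) passed. Adamtsl3 rose by 0.56 ± 0.11 (adjusted p = 0.00239) and Adamtsl4 fell by 0.51 ± 0.12 (adjusted p = 0.00551) in wild type lungs.

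Set side by side after bleomycin, knockout lungs were lower than wild type lungs in 19 members and higher in 2, Mmp9 and Adam22. Of all genes, 7.89% were lower, 7.52% higher and 15.4% called in either direction. The members' median difference was -0.10, against 0.03 for all genes. At a difference of at least 2-fold 7 members were called (2.17% of all genes), all lower in knockout lungs: Mmp13 (-1.99), Adamts12 (-1.95), Adamts4 (-1.68), Adam12 (-1.62), Mmp14 (-1.29), Mmp19 (-1.09) and Adamts15 (-1.04). The sheddases Adam9 (-0.43), Adam10 (-0.31) and Adam17 (-0.25) were lower as well, and so were Adam15 (-0.51) and, named after its values were seen, Adam23 (-0.52). The Adam17 call was lost under 10 of 20 alternatives and the Adam10 call under 3, with an adjusted p of 0.4 on the mean of its probe sets. Adamts15 was no longer called without wild type bleomycin replicate 1 (0.0769) or knockout bleomycin replicate 3 (0.0705).

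After saline 3 members were called, Mmp8 and Mmp9 higher and Adamts9 lower in knockout lungs. Of all genes, 0.297% were higher, 0.192% lower and 0.489% called in either direction. The members' median difference was -0.04, against -0.02 for all genes. Without wild type saline replicate 2, or without knockout saline replicate 1 or 3, only Adamts9 was called. Without wild type saline replicate 2 the Mmp9 difference was 0.83 instead of 0.84 (adjusted p = 0.0675) and the Mmp8 difference 0.75 in both cases (0.0732), and both calls were also lost without wild type saline replicate 3 (0.0622 and 0.0805).

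Other genes of the pathway were counted by list. Over all genes, 13.3% rose and 14.4% fell in wild type lungs, and 1.98% rose and 1.29% fell in knockout lungs. Of 9 endogenous inhibitors measured, 3 rose and 1 fell in wild type lungs, with a median change of 0.11 against -0.04 for all genes, and 1 rose and 1 fell in knockout lungs. Timp1, which blocks most MMPs, rose by 4.01 ± 0.31 in wild type lungs (adjusted p = 2.52e-06) and 1.32 ± 0.31 in knockout lungs (adjusted p = 0.036), and the responses differed by -2.69 ± 0.44 (adjusted p = 0.0066). Reck, a membrane-anchored MMP inhibitor, fell by 0.93 in wild type and by 0.50 in knockout lungs (adjusted p = 7.38e-05 and 0.0333). Serpina3n and A2m rose by 1.89 and 0.39 in wild type lungs.

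Of 19 activators and partners 6 rose and none fell in wild type lungs, among them Plat (0.90), the plasminogen activator, Tspan5 (0.54), a tetraspanin partner of Adam10, Rhbdf2 (0.44), a partner of Adam17, and Pcsk6 (0.52). In knockout lungs limma called 0 of the 19, and 6 had an unadjusted p under 0.05. Of 18 proteins shed by ADAMs 7 rose and 4 fell in wild type lungs, and 1 rose in knockout lungs. The EGF receptor ligand Ereg rose by 3.19 ± 0.23 in wild type lungs (adjusted p = 1.56e-06), with a difference between responses of -2.51 ± 0.32 (adjusted p = 0.00246). Tnfrsf1b rose by 1.06, Cxcl16 by 0.94 and Cd44 by 0.72 in wild type lungs.

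Of 18 matrix substrates 11 rose and 1 fell in wild type lungs, with a median change of 1.05, and 8 rose in knockout lungs, with a median of 0.47. Tnc rose by 4.04, Eln by 3.31, Col1a1 by 2.45 and Fn1 by 2.13 in wild type lungs, and their knockout changes were 2.0, 2.01, 1.17 and 0.78. The responses differed in each of these 4 (Tnc -2.05, adjusted p = 0.00982; Eln -1.30, 0.0178; Col1a1 -1.27, 0.0205; Fn1 -1.35, 0.00298). Fibroblast markers, which share collagen genes with this list, summed to 14.12 to 14.22 after saline and 14.82 to 15.21 after bleomycin in wild type lungs, as log2, and to 13.92 to 14.04 and 14.33 to 14.48 in knockout lungs. Of these 8 markers 5 rose and 2 fell in wild type lungs and 3 rose in knockout lungs. Their median change was 0.80 in wild type and 0.01 in knockout lungs. In knockout lungs the means of Col1a1, Col1a2, Col3a1 and Pdgfrb went up, and those of Pdgfra, Dcn, Lum and Tcf21 went down. The sum is of linear values, and Col3a1 was its brightest gene in every group. The part of these markers in the changes of Mmp14, Mmp2, Adam12 and Adamts12 was not tested.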

How the data were processed

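The authors deposited log2 values of 45101 probe sets on 12 arrays. RMA, affy and limma are listed in the submitters' processing notes with no version. A genome build is not given in the sources used here. Here, 34958 probe sets paired with 1 gene were kept (34754 matched the GRCm38.p6 gene table by Entrez identifier), and each of 18194 genes took the probe set with the highest mean. One limma fit (3.58.1, statmod 1.5.0, R 4.3.3) held a mean per group, followed by eBayes without trend and Benjamini-Hochberg over all genes. The 5 contrasts were the response of each genotype, their difference, and the genotypes within each treatment. The procedure was tested on simulated data. Figures used matplotlib 3.10.9. Detection calls were not used, and 3 arrays per group limit the precision.

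The members, the lists and the tests were chosen with earlier results of these data known. Named members were those called with at least a 2-fold change, a fixed set of well-known genes, and up to 4 called members per role with the smallest p, and others are marked in the text. From the other lists up to 4 genes with the smallest p in wild type were named. In the neutrophil and fibroblast marker lists further genes were named after their values were seen. Same-numbered arrays of different groups correlated between -0.297 and 0.203 after removal of group means, so the numbers were not taken as pairs. Alternatives were leaving out genes whose mean is under 5, other normalizations, eBayes with trend, the mean of all probe sets, array weights, only the groups compared, a block and each array left out.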

Additional observations from a re-analysis of the deposited data

Results flagged for a closer look

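The responses of the genotypes to bleomycin differed by a direct test (limma, difference between responses, knockout minus wild type, log2) in 10 members. The knockout response was the smaller one in Adamts12 (-2.16), Mmp13 (-1.89), Adam12 (-1.69), Adamts4 (-1.61), Mmp8 (-1.54), Mmp19 (-1.42), Mmp14 (-1.16) and Mmp11 (-0.47). It was the higher one in Adam22 (0.84) and Adamts8 (0.50), both of which fell in wild type lungs. Wild type and knockout changes had opposite signs in Mmp8 (1.24 and -0.30) and Adamts8 (-0.31 and 0.19), and in both genes the knockout change was not called.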

How the results depend on the processing

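Of 69 calls on 31 named members, 40 were kept under every alternative run and 29 were lost under at least 1, with no reversal of sign. A further 21 uncalled values changed sign under an alternative. Members called, over single arrays left out, ranged from 23 to 28 for bleomycin in wild type, 5 to 12 for bleomycin in knockout, 1 to 4 for the genotypes after saline, 14 to 22 for the genotypes after bleomycin and 5 to 10 for the difference between responses. Array weights gave 8 members for the genotypes after saline. These counts, and those below for the replicate block, are given without the share of all genes called at the same setting. They do not tell a change in the members from a change over all genes. The fit with the replicate block gave 26, 10, 3, 19 and 8 members in the same order, and 7 calls on named members were lost under it, with the Mmp14 difference at an adjusted p of 0.0557. Without wild type bleomycin replicate 1, which moved them by over 1.5 times, the wild type rises of Adamts6 (0.30, adjusted p = 0.129) and Mmp23 (0.37, adjusted p = 0.188) were no longer called, and the knockout minus wild type differences after bleomycin were -0.44 for Adamts7 and -0.48 for Mmp10. Wild type bleomycin replicate 1 also read highest of the wild type bleomycin arrays for Adam12, Adamts4, Adamts12 and Mmp14. Their wild type rises stayed called without it. Its fibroblast marker sum (15.21) was the highest of the 12 arrays, and its lung (15.79) and airway (13.65) sums were the lowest. The cause of these moves was not tested. Dim signal limits Mmp13 in saline lungs and in knockout bleomycin lungs (mean 3.91), and the 21 members dim in all groups.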

Other observations

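Metalloproteinases outside the 4 families moved in both directions. Of 14 measured, 4 rose and 4 fell in wild type lungs, and in knockout lungs limma called 0, with an unadjusted p under 0.05 for 3. The shares of all genes were 13.3% risen and 14.4% fallen in wild type lungs, and 3.26% called in knockout lungs. Pappa2, which cuts IGF-binding proteins, rose by 1.03 ± 0.12 (adjusted p = 5.08e-05), and Bmp1, which removes the C-terminal propeptide of fibrillar procollagens, by 0.86 ± 0.13 (adjusted p = 0.000321). Mme, the membrane peptidase neprilysin, fell by 1.18 ± 0.17 (adjusted p = 0.000227), and Ece1, which activates endothelins, fell by 0.43 ± 0.08 (adjusted p = 0.00129). The responses differed for Mme (1.12, adjusted p = 0.0218) and Pappa2 (-0.71, adjusted p = 0.037).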
